A study of Mus musculus with 15 samples.

Results

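The proteasome is the protein complex that degrades ubiquitin-tagged proteins, and its genes were followed in cultured mouse white adipocytes kept at 31°C. Genes were taken as proteasome genes when their symbol began with Psma, Psmb, Psmc, Psmd, Psme, Psmf or Psmg and a digit. Of the 18804 genes in the count table, 49 matched, and 46 were kept after the 3 immunoproteasome genes Psmb8, Psmb9 and Psmb10 were set aside. All 46 had enough counts to be tested, in a fit of 14293 genes. They comprise 14 subunits of the core particle, 17 of the regulatory particle, 4 assembly chaperones of the core, 3 of the regulatory particle, 5 activators and regulators, and 3 others.

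The adipocytes were differentiated from mesenchymal stem cells taken from C57BL/6J mice, without any genetic change, and RNA from 15 cultures was sequenced, 5 libraries per group. The day 0 group stayed at 37°C. Transfer to 31°C took place on day 15 of differentiation for the day 1 group and on day 4 for the day 12 group, and every culture was harvested on day 16. Per the labels, all groups had received the same induction mix of methylisobutylxanthine, dexamethasone, insulin and troglitazone, though a culture protocol elsewhere in the study names rosiglitazone in its place. Because the day 12 cells entered the cool incubator while still differentiating, the length of the exposure and the stage at which it began cannot be told apart. The sources do not say if libraries of the same group are of different mice or of dishes of 1 preparation, so p-values measure the spread between libraries, which may be technical.

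Total counts ranged from 64648178 to 133270973 per library. The library labelled day 0 replicate 3 was the lowest of its group for 26 of the 31 subunits, and counts that depend on it are given below with and without it. The 6 adipocyte markers summed to between 2235 and 2527 CPM (a level scaled for library size with TMM factors) at day 0. They summed to between 2835 and 3029 CPM at day 1 and between 2359 and 2566 at day 12, and single markers moved apart. At day 1, 2 of the 6 were lower than at day 0 by more than 1.5 times and 1 was higher. The log2 fold changes at day 1 ran from -2.62 for Cidec to 0.76 for Fabp4. At day 12, 4 of the 6 were lower and 1 was higher by the same limit, and all of these passed the adjusted p. Mean Adipoq was 1095 CPM at day 0 and 464 at day 12, while mean Fabp4 was 828 and 1617. Endothelial markers reached at most 1.5 CPM. Macrophage and leukocyte markers summed to between 6.63 and 9.05 CPM at day 0, 9.82 and 12.96 at day 1 and 5.055 and 5.99 at day 12. The 2 of these that were tested, Cd68 and Csf1r, passed the adjusted p upwards at day 1. Markers of proliferating cells summed to between 49.0 and 67.3 CPM at days 0 and 1 and to between 145 and 175.5 at day 12. Mesothelial markers summed to at most 1.99 CPM at days 0 and 1 and to between 23.0 and 37.9 at day 12. Of these Msln alone rose. Krt19 was at 0.06 on the log2 scale at day 12, and Upk3b and Wt1 were at most 0.073 CPM in any library. Of the 3 progenitor markers tested, Ly6a fell by 1.42 on the log2 scale at day 12, Pdgfra rose by 0.34 and Cd34 did not pass (-0.09). The part of these differences in the results at day 1 and day 12 was not tested. In bulk RNA a change in the share of a cell type and a change in RNA per cell cannot be told apart.

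As background, the 26S proteasome has a barrel-shaped core particle that is capped by a regulatory particle. The core is built of stacked rings of alpha subunits (Psma genes), which gate the entry, and of beta subunits (Psmb genes), of which Psmb5, Psmb6 and Psmb7 carry the proteolytic sites. The regulatory particle has a base, with a ring of ATPases (Psmc genes) that unfold substrates, and a lid of Psmd subunits that removes ubiquitin. When proteasome activity is short, the transcription factor Nfe2l1 can raise the subunit genes together through antioxidant response elements in their promoters, and in brown fat this factor is known for its part in cold adaptation.

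Promoters of 4 core subunits are shown because they hold the motifs searched and because the genes differ in how their levels moved. Psmb3 had the largest rise at day 1, Psmb5 and Psmb6 carry proteolytic sites, and Psma1 was back at its day 0 level at day 12. The sequences are from RefSeq (GRCm38.p6) and run 5′ to 3′ on the strand of the gene, from 250 bases before to 50 bases after its start. Capitals mark TGACNNNGC, the core of the antioxidant response element, or CCAAT, the box bound by the factor NF-Y, on either strand.
Psmb3, chr11:97703184-97703483, plus strand: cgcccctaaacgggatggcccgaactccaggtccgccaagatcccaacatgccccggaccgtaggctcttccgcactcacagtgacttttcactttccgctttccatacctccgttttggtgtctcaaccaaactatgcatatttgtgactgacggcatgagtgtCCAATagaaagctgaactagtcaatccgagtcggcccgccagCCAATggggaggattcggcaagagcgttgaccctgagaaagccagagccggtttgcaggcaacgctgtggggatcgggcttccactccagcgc
Psmb5, chr14:54617946-54618245, minus strand: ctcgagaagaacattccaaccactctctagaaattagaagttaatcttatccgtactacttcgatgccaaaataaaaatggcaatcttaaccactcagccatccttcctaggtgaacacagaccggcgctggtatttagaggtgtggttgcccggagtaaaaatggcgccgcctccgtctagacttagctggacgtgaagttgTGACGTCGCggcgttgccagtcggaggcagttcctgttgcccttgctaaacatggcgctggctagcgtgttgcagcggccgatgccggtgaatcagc
Psmb6, chr11:70525107-70525406, plus strand: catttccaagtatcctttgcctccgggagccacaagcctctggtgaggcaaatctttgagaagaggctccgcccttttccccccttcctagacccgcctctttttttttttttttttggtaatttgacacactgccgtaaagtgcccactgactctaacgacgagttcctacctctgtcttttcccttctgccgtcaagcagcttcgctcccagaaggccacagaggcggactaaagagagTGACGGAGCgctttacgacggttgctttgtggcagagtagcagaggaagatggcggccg
Psma1, chr7:114276067-114276366, minus strand: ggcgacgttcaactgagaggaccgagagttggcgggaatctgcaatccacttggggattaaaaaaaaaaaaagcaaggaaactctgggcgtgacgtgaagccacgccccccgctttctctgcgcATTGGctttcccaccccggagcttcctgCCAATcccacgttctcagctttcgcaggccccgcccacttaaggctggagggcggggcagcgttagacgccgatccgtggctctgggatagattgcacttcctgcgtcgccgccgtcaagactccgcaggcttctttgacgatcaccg
The promoters of Psmb5 and Psmb6 held 1 TGACNNNGC match each, beginning 47 and 9 bases before the start, and no CCAAT. Those of Psmb3 and Psma1 held 2 CCAAT matches each and no TGACNNNGC.

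A RefSeq promoter was matched for 38 of the 46 genes. TGACNNNGC was found in 6 of them (15.8%), which were Psmb5, Psmb6, Psmc6, Psmd12, Psmd9 and Psme4, against 14% of all 27025 promoters. CCAAT was found in 14 (36.8%), against 41.1% of all promoters, and 5 of the 14 were among the 7 alpha subunits. The 2 motifs overlapped in none of the 38 promoters. Psma8, Psmb1, Psmb2, Psmb7, Psmc3, Psmd3, Psmd7 and Psmg2 were not matched. A match describes letters in this window and was not examined as a binding site.

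The first comparison asked how the proteasome genes stood after 1 day at 31°C. Genes of both particles were higher at day 1, the median of the 46 by 1.44 times, and none passed the test as lower. A gene was called when its adjusted p was below 0.05 and it changed by more than 1.5 times. By this rule 20 of the 46 genes were called higher (43.5%), against 7.71% of all genes tested, and 0 were called lower, against 13.4%. By the adjusted p alone, 41 were higher and 0 lower, against 35.3% and 36.2% of all genes. In 40 of the 46, every day 1 library was above every day 0 library, which held for 28.6% of all genes. The 5 that did not pass were Psmg1, Psmg4, Psma8, Psmb11 and Psmc3ip.

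The 31 subunits of the 26S proteasome moved in the same direction at day 1. All 31 passed the adjusted p upwards with no overlap between the groups, and 19 were called. Of all genes tested, 35.3% passed upwards, 28.6% were higher without overlap and 7.71% were called higher. Their median log2 fold change was 0.62, a fold change of 1.54, against -0.01 for all genes tested, and the range was from 0.27 for Psma4 to 0.96 for Psmb3. Summed over the 31 genes, the day 0 level was 2973 ± 81.7 CPM (SD, n = 5). It was 4548 ± 44.7 at day 1 and 3921 ± 51.7 at day 12. The core particle had a median of 0.65 with 10 of 14 called, and the regulatory particle a median of 0.60 with 9 of 17 called.

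After 12 days the subunits were still above day 0, by less. Of the 46 genes, 7 were called higher, against 13% of all genes tested, and 0 lower, against 16.2%, so the share called (15.2%) was close to that of all genes. By the adjusted p alone, 39 were higher and 1 was lower, against 39.2% and 37.4%. All day 12 libraries lay above all day 0 libraries in 38 genes and below them in 1, against 33% and 31.7% of all genes. The genes called were the subunits Psma7, Psmb3, Psmc4, Psmd6, Psmd8 and Psmd13 and the recombination gene Psmc3ip. Over the 31 subunits the median log2 fold change was 0.43, against 0.01 for all genes, with 29 higher by the adjusted p. The lid subunit Psmd11 was lower, and the alpha subunit Psma1 did not pass. Libraries scaled by their total counts alone gave 20 calls among the 46, where the median of all genes was 0.21 and the 31 subunits had a median of 0.62. Relative to the median of all genes, the subunits stood at 0.41 under either scaling. A change of scaling shifts all genes nearly alike, so this value is no test of the scaling.

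**Figure D1:**
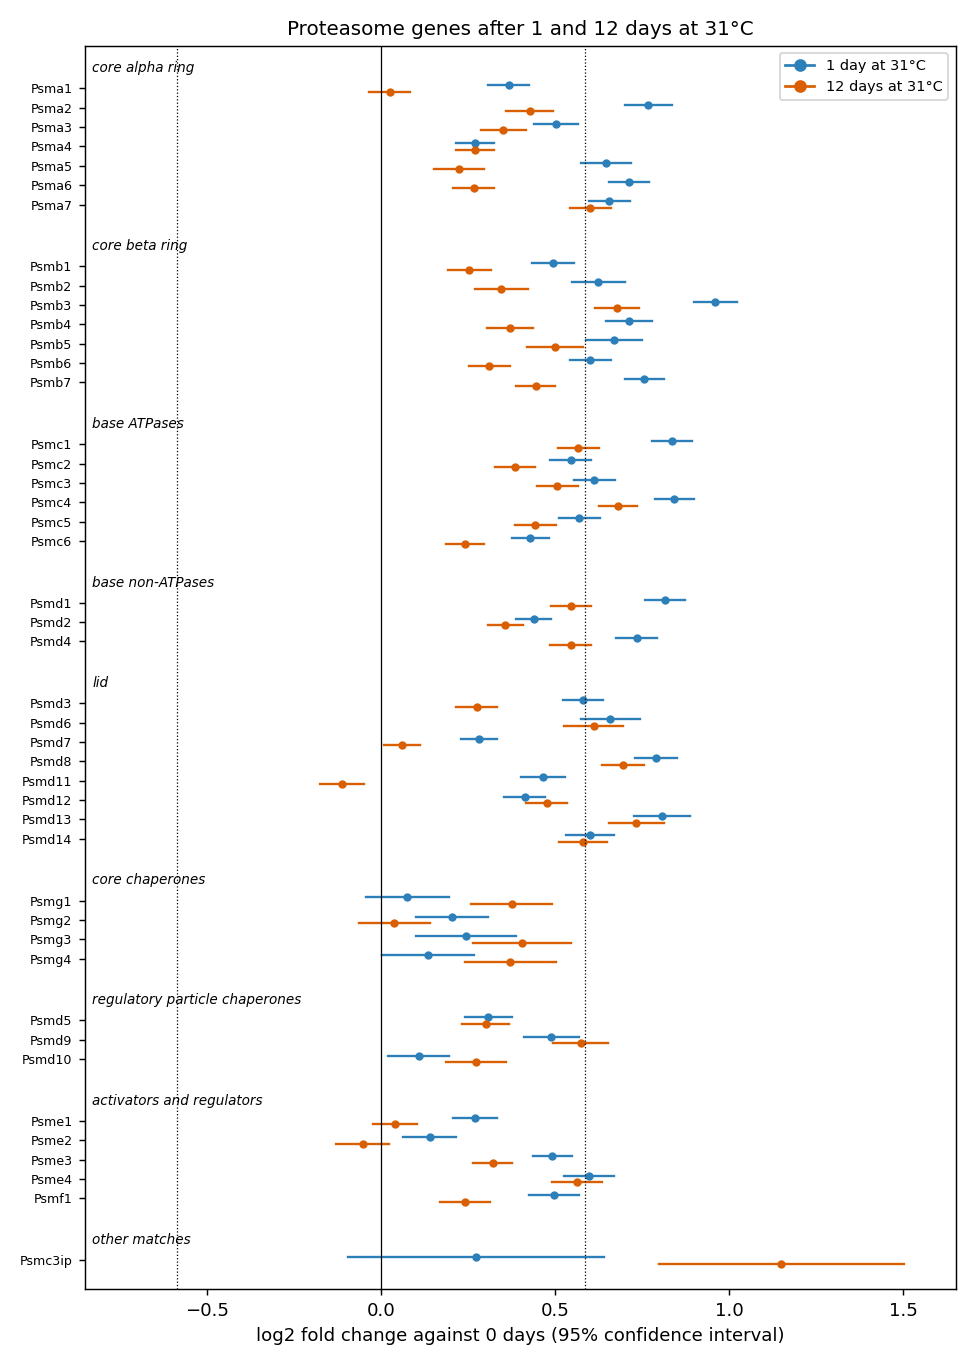
Log2 fold change against day 0, on the horizontal axis, of 44 proteasome genes grouped by role, at day 1 (blue) and day 12 (orange), with bars for the 95% confidence interval and dotted lines at a fold change of 1.5. All 31 subunits of the core rings, the base and the lid lie to the right of 0 at day 1, and Psmd11 lies to the left of 0 at day 12.

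In the values below, the 5 libraries of a group follow the order of their replicate numbers and coordinates are those of GRCm38. Of the 7 alpha subunits, all rose at day 1, with a median log2 fold change of 0.65, and 4 were called, against 7.71% of all genes. Psma2 (chromosome 13, 14613240 to 14674236) stood at 114, 113, 103, 112 and 119 CPM at day 0, 194, 186, 192, 191 and 191 in the day 1 libraries and 153, 148, 147, 146 and 159 at day 12. This alpha subunit was higher in every day 1 library than in any day 0 library, by 0.77 ± 0.033 (log2, SE; adjusted p = 4.65e-16), and the day 12 libraries lay between at 0.43. Psma5 (chromosome 3, 108256926 to 108279974) measured 90.8, 89.5, 84.8, 87.4 and 91.8 CPM at day 0, 139, 134, 135, 142 and 144 in the day 1 libraries and 105, 101, 100.3, 99.9 and 114 at day 12. Here the day 12 libraries were nearer to day 0, with log2 fold changes of 0.65 at day 1 and 0.22 at day 12. Psma6 (chromosome 12, 55384222 to 55418454) was at 126, 129.5, 119, 124 and 123 CPM at day 0, 209.6, 199.8, 205, 205 and 198 in the day 1 libraries and 152, 150.2, 146, 145 and 154 at day 12. The groups did not overlap, and the log2 fold change dropped from 0.71 at day 1 to 0.27 at day 12. Psma7 (chromosome 2, 180036374 to 180042433) stood at 78.9, 74.5, 72.6, 76.3 and 80.9 CPM at day 0, 123, 119, 120.4, 119.5 and 122 in the day 1 libraries and 114, 118, 115, 117 and 118 at day 12. Both cool groups lay above day 0, by 0.66 and 0.60, and differed from each other by a value that did not pass (-0.05, adjusted p = 0.0942 by edgeR).

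The remaining alpha subunits were not called. Psma1 measured 109, 105, 99.8, 109.9 and 109 CPM at day 0, 132, 139, 139, 136 and 141 in the day 1 libraries and 109.6, 106, 108, 107 and 111 at day 12. All day 1 libraries were above the others, at 0.37, while the day 0 and day 12 libraries overlapped, at 0.02 with an adjusted p of 0.433 by edgeR. Psma3 rose by 0.50 at day 1 and 0.35 at day 12. Psma4 had the same log2 fold change, 0.27, at both times. About 49.1% of the 50-base stretches of Psma5 also occur in other annotated genes (Gm8394 and Gm12989), as do 15.4% of those of Psma3 and 11.6% of those of Psma4, and how reads of such stretches were counted was not stated, so their values are uncertain.

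All 7 beta subunits rose at day 1, with a median of 0.67, and 6 were called, against 7.71% of all genes. Psmb3 (chromosome 11, 97703399 to 97713500) was at 67.0, 66.3, 61.1, 66.7 and 69.9 CPM at day 0, 129, 130.1, 127, 127 and 131 in the day 1 libraries and 106, 105, 104, 105 and 109.7 at day 12. The 3 groups did not overlap. This non-catalytic beta subunit had the largest log2 fold change of the 46 genes at day 1, 0.96 ± 0.030 (SE; adjusted p = 2.21e-18 by edgeR), and stood at 0.68 ± 0.030 at day 12. Of its 50-base stretches, 17.8% are shared with other genes. Psmb4 (chromosome 3, 94884093 to 94886961) stood at 114, 107, 106, 114 and 117 CPM at day 0, 183, 181, 181, 181 and 189 in the day 1 libraries and 151, 144, 137, 142 and 149 at day 12. The same order of groups held without overlap, at 0.71 and 0.37, and day 1 replicate 5 was apart from the other day 1 libraries. Psmb2 (chromosome 4, 126677630 to 126709714) measured 81.3, 76.5, 76.5, 81.4 and 85.5 CPM at day 0, 127, 119.5, 118, 127 and 126 in the day 1 libraries and 95.4, 103, 106, 107 and 98.1 at day 12. The log2 fold changes of Psmb2 were 0.62 and 0.35. Psmb1 rose by 0.49 and 0.25, under the fold limit.

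The 3 beta subunits with proteolytic sites rose together. Psmb5 (chromosome 14, 54614119 to 54618022) was at 60.6, 56.0, 53.9, 59.9 and 58.6 CPM at day 0, 88.1, 91.3, 91.9, 91.5 and 96.3 in the day 1 libraries and 85.3, 76.6, 79.4, 79.1 and 88.1 at day 12. Psmb5, the chymotrypsin-like site, was higher in all cool libraries than at day 0, by 0.67 at day 1 and 0.50 at day 12, with overlap between day 1 and day 12. Psmb6 (chromosome 11, 70525367 to 70527858) stood at 80.5, 79.2, 73.4, 75.9 and 80.3 CPM at day 0, 118, 117, 115, 121 and 119.9 in the day 1 libraries and 93.3, 97.3, 95.3, 98.3 and 99.0 at day 12. Psmb6, the caspase-like site, separated in all 3 groups, at 0.60 and 0.31, and its day 1 call was lost without day 0 replicate 3 (0.58). Psmb7 (chromosome 2, 38588036 to 38644087) measured 87.2, 84.1, 84.3, 89.1 and 89.6 CPM at day 0, 146, 148, 147, 143 and 149 in the day 1 libraries and 115, 115, 120.1, 118 and 123 at day 12. Psmb7, the trypsin-like site, also separated in all 3 groups, at 0.76 and 0.44. The copies Gm3375 and Psmb5-ps share 47.4% of the 50-base stretches of Psmb5, and 12.1% of its exon bases lie in Mir686. Of the exon bases of Psmb7, 11.8% overlap Nek6 on the opposite strand, and whether counting used strand was not stated.

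In the base of the regulatory particle, the 6 ATPases all rose at day 1, with a median of 0.59, and all stayed above day 0, with a median of 0.47. Psmc4 (chromosome 7, 28041707 to 28050101) was at 66.2, 64.6, 61.9, 63.1 and 66.9 CPM at day 0, 116, 113, 116, 116 and 118 in the day 1 libraries and 104, 106, 104, 103 and 101 at day 12. The groups did not overlap, and the rise was 0.84 ± 0.027 (log2, SE) at day 1 and 0.68 ± 0.027 at day 12 (adjusted p = 2.69e-18 and 5.71e-17 by edgeR). Psmc1 (chromosome 12, 100110154 to 100123405) stood at 94.3, 96.2, 87.5, 93.8 and 93.0 CPM at day 0, 165, 159.7, 171, 168 and 167 in the day 1 libraries and 139.5, 136, 135, 136 and 142 at day 12. Psmc1 was at 0.84 and 0.57, again without overlap, and shares 14.1% of its 50-base stretches with other genes. Psmc3 (chromosome 2, 91054009 to 91066369) measured 89.8, 91.5, 82.8, 88.5 and 91.2 CPM at day 0, 139, 133, 136, 133 and 138 in the day 1 libraries and 124, 127, 129.5, 124 and 126 at day 12. Psmc3 was at 0.61 and 0.51, and its day 12 libraries lay just under those of day 1. Psmc2, Psmc5 and Psmc6 passed the adjusted p but not the fold limit at day 1, at 0.54, 0.57 and 0.43.

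The 3 base subunits that are not ATPases comprise the large scaffolds Psmd1 and Psmd2 and the ubiquitin receptor Psmd4. Psmd1 (chromosome 1, 86064387 to 86139151) was at 149.5, 150.3, 138, 143 and 147 CPM at day 0, 262, 246, 260.4, 257 and 256 in the day 1 libraries and 217, 214, 214, 206 and 210.2 at day 12. The groups were fully separate, at 0.82 and 0.55. Psmd4 (chromosome 3, 95032694 to 95042614) stood at 76.9, 73.2, 72.3, 77.2 and 76.9 CPM at day 0, 123, 128, 119.8, 125 and 130.3 in the day 1 libraries and 112, 108, 109, 108 and 112 at day 12. Psmd4 was likewise separate in the 3 groups, at 0.73 and 0.55. Psmd2, the gene with the most counts of the 31, rose by 0.44 at day 1 and 0.36 at day 12. About 17.8% of its 50-base stretches also occur in other genes.

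All 8 lid subunits rose at day 1, with a median of 0.59, and 4 were called, against 7.71% of all genes. Psmd13 (chromosome 7, 140881968 to 140898643) measured 63.3, 58.4, 56.5, 58.4 and 59.0 CPM at day 0, 98.9, 103, 100.3, 113 and 103 in the day 1 libraries and 98.9, 101, 91.6, 96.0 and 104 at day 12. Both cool groups were above day 0 and overlapped each other, at 0.81 ± 0.039 and 0.73 ± 0.039 (SE), and the day 12 value was the highest of the 31 subunits. Psmd13 shares 10.1% of its exon bases with Sirt3 on the opposite strand. Psmd8 (chromosome 7, 29174188 to 29180701) was at 128, 122, 126, 129 and 129.5 CPM at day 0, 226, 217, 209.6, 222 and 223 in the day 1 libraries and 197, 208, 208, 214 and 198 at day 12. Psmd8 showed the same pattern at 0.79 and 0.69. Psmd6 (chromosome 14, 14112174 to 14120984) stood at 47.5, 46.5, 40.6, 47.6 and 48.2 CPM at day 0, 69.0, 75.6, 75.3, 72.2 and 71.6 in the day 1 libraries and 72.1, 70.5, 67.4, 68.1 and 73.9 at day 12. Psmd6 was at 0.66 and 0.61, with day 0 replicate 3 well under the other day 0 libraries, and without that library the day 12 call was lost (0.57). Psmd14 (chromosome 2, 61711694 to 61800376) measured 71.1, 71.1, 63.4, 69.0 and 72.6 CPM at day 0, 105, 101, 108, 107 and 104 in the day 1 libraries and 101, 103, 105, 100.4 and 109 at day 12. Psmd14, the enzyme that cuts ubiquitin chains from the substrate, was at 0.60 and 0.58, and its day 1 call was lost without day 0 replicate 3 (0.57).

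Psmd11, a scaffold of the lid, was the only one of the 31 subunits to fall below day 0 by the adjusted p at day 12. Psmd11 (chromosome 11, 80428615 to 80473248) was at 95.9, 92.2, 90.1, 90.3 and 98.3 CPM at day 0, 125, 127, 127, 133 and 132 in the day 1 libraries and 84.5, 89.8, 87.6, 86.5 and 83.5 at day 12. Every day 1 library was above day 0, at 0.47, and every day 12 library was below it, at -0.11 ± 0.030 (SE; adjusted p = 0.00182 by edgeR), though with total counts alone the value was 0.08 against a median of 0.21 for all genes. Psmd7 fell back nearly to day 0, from 0.28 to 0.06, while Psmd12 was at 0.41 and then 0.48. Psmd3 lay just outside the call at day 1, at 0.58, and was at 0.27 at day 12.

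**Figure D2:**
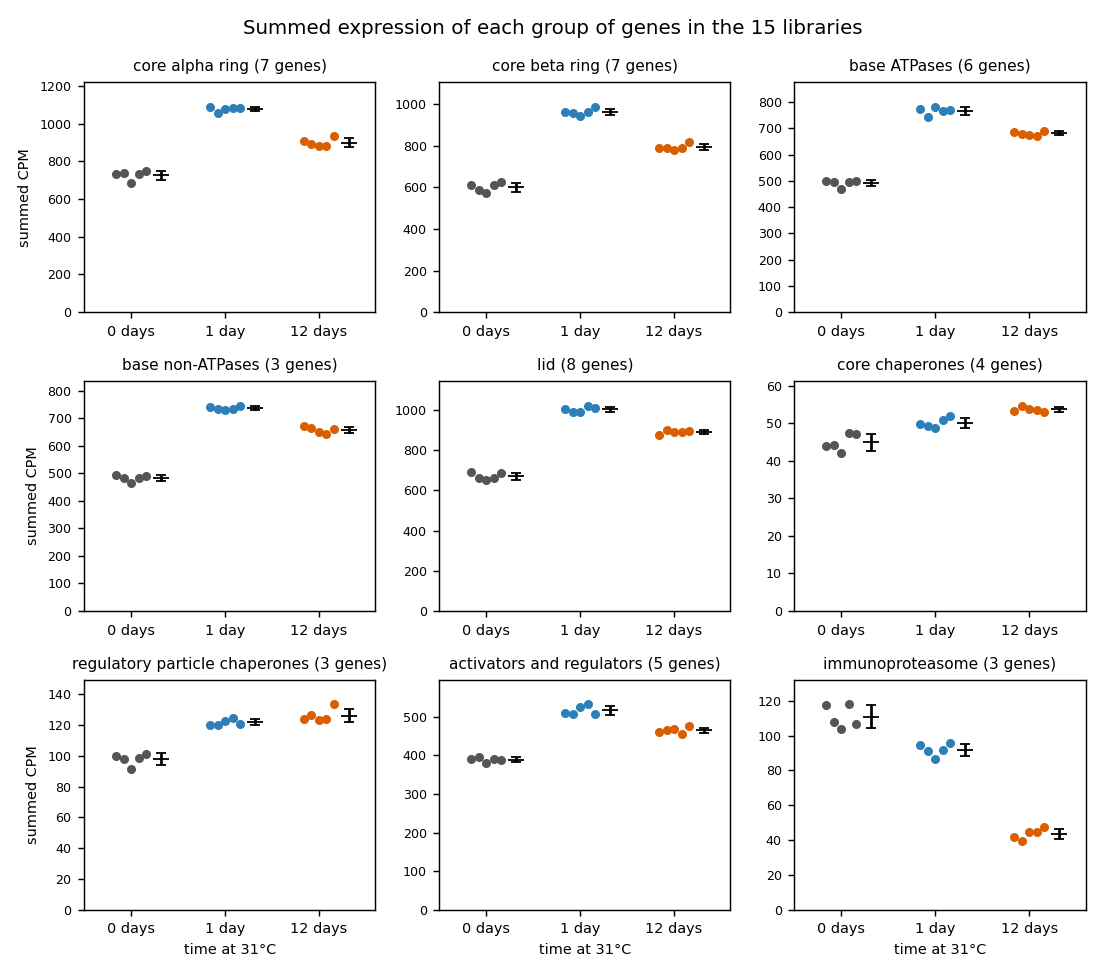
Summed CPM, on the vertical axis from 0, of each group of genes in each of the 15 libraries (points) by time at 31°C, with the mean and SD of the 5 libraries in black. The 5 groups of subunits are highest at day 1 and in between at day 12, the chaperones are at least as high at day 12 as at day 1, and the immunoproteasome genes are lowest at day 12.

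Library numbers in the labels fall into 2 series, of 11 and 4 libraries, and each group has libraries of both. Within the 11 libraries of the larger series, 20 genes were called at day 1 and 7 at day 12, and the core and regulatory particles had medians of 0.64 and 0.61 at day 1 and of 0.36 and 0.52 at day 12. The calls at day 1 depended little on single libraries. Leaving out each library in turn gave between 18 and 21 calls at day 1 and between 5 and 9 at day 12. Without day 0 replicate 3 they were 18 and 5, the calls of Psmb6 and Psmd14 at day 1 and of Psma7 (0.58) and Psmd6 at day 12 being lost.

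Day 12 was then set against day 1. Of the 46 genes, 30 were lower at day 12 by the adjusted p and 5 were higher, against 32.8% and 34.3% of all genes tested. Only Psmc3ip was called higher with the fold limit, against 10.6% of all genes, and 0 genes were called lower, against 8.53%. In 29 genes every day 12 library was below every day 1 library, and in 3 every one was above, against 25.9% and 26.5% of all genes. Of the 31 subunits 25 were lower and 0 higher, with a median of -0.19, and Psma4, Psma7, Psmd6, Psmd12, Psmd13 and Psmd14 did not pass. The core particle had a median of -0.29 and the regulatory particle one of -0.16. With total counts alone, the median of all genes stood at 0.18, the core at -0.11 and the regulatory particle at 0.01, so that the direction of the regulatory particle turned. Of the 31 subunits, 14 were then lower and 9 higher by the adjusted p. Relative to the median of all genes, the 2 particles were at -0.30 and -0.17 under either scaling, values that a shift of all genes leaves unchanged.

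The largest decrease from day 1 to day 12 was that of Psmd11, at -0.58 ± 0.030 (log2, SE; adjusted p = 2.99e-14 by edgeR), just short of the fold limit of 1.5. Among the 31 subunits, Psma6 followed at -0.45 and Psma5 at -0.42. Psma8, near the limit of detection, was at -0.56 and did not pass. The alpha ring had the lowest median, -0.34, ahead of the beta ring at -0.28, the base ATPases at -0.16 and the lid at -0.09. The differences between these groups of genes were not tested.

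**Figure D3:**
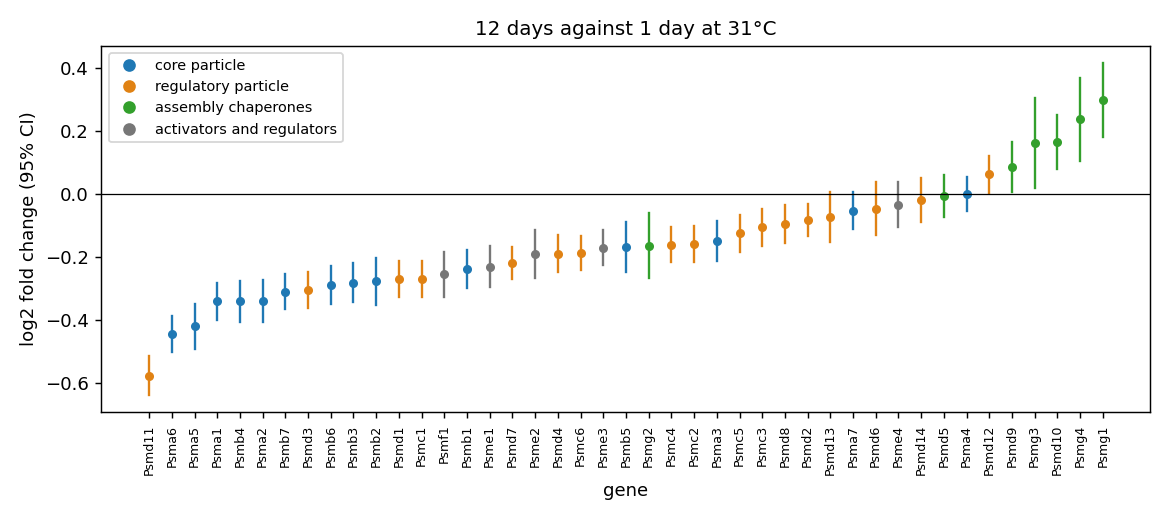
Log2 fold change of day 12 against day 1, on the vertical axis, of 43 proteasome genes ordered by that value and coloured by role, with bars for the 95% confidence interval. Psmd11 is the lowest at -0.58, and the assembly chaperones Psmd9, Psmg3, Psmd10, Psmg4 and Psmg1 are at the upper end, up to 0.30 for Psmg1.

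The assembly chaperones, which build the particles and are not part of the finished complex, comprise 4 for the core and 3 for the regulatory particle. Of the 4 core chaperones, 2 rose at day 1 and 3 at day 12 by the adjusted p, where 35.3% and 39.2% of all genes did. Their medians were 0.17 and 0.37, and 0 were called, against 7.71% and 13% of all genes. Psmg3 stood at 6.56, 6.23, 5.56, 6.64 and 6.42 CPM at day 0, 6.47, 6.92, 8.09, 8.19 and 7.51 in the day 1 libraries and 8.58, 8.46, 8.12, 8.35 and 8.07 at day 12. Psmg3 rose by 0.24 at day 1, with overlap, and by 0.41 ± 0.069 (SE) at day 12, where all libraries were above day 0. Psmg1 was at 0.08 at day 1 (adjusted p = 0.239 by edgeR) and rose by 0.38 at day 12, and Psmg4 was at 0.13 (adjusted p = 0.0641 by edgeR) and rose by 0.37. All of Psmg1, Psmg3 and Psmg4 were higher at day 12 than at day 1, by 0.30, 0.16 and 0.24. Psmg2, the partner of Psmg1, went the other way, with a rise of 0.20 at day 1 and a value of 0.04 at day 12.

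The 3 chaperones of the regulatory particle rose at both times. Psmd9 measured 25.3, 23.5, 22.6, 24.5 and 23.8 CPM at day 0, 32.9, 31.99, 33.9, 34.5 and 34.8 in the day 1 libraries and 35.0, 36.6, 34.9, 33.9 and 37.9 at day 12. Psmd9 was above day 0 in all cool libraries, by 0.49 at day 1 and 0.57 at day 12, and 25.5% of its exon bases overlap Gm26745 on the opposite strand. Psmd5 rose by 0.31 and 0.30. Psmd10, also known as gankyrin, rose by 0.11 and 0.27 and was higher at day 12 than at day 1, by 0.16.

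The activators and regulators bind the ends of the core in place of the regulatory particle. All 5 rose at day 1 by the adjusted p, against 35.3% of all genes, and 1 was called, against 7.71%. Psme4 (chromosome 11, 30771726 to 30880361) was at 101, 106, 106, 99.6 and 98.7 CPM at day 0, 146, 154, 165, 161 and 147 in the day 1 libraries and 154, 152, 149, 143 and 156 at day 12. Psme4, a single-chain cap of the core, was above day 0 in all cool libraries, by 0.60 at day 1 and 0.56 at day 12, and its day 1 call was lost without day 1 replicate 3 (0.58) or 4 (0.58). Psme3, the nuclear form of the 11S cap, rose by 0.49 and 0.32. Psmf1, an inhibitor of the core in vitro, rose by 0.50 and 0.24. Psme1 and Psme2, which form the interferon-induced 11S cap, rose by 0.27 and 0.14 at day 1 and were at 0.04 and -0.05 at day 12 (adjusted p = 0.247 and 0.191 by edgeR). Psme2b and Gm7928 share 28.3% of the 50-base stretches of Psme2.

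The other 3 genes match the rule by name. Psma8 and Psmb11, the core subunits of testis and thymus, were near the limit of detection, with at most 26 and 40 counts in any library. Psma8 was at 0.16 ± 0.54 (log2, SE) at day 1 and -0.39 ± 0.56 at day 12, and Psmb11 at -0.40 ± 0.31 and -0.41 ± 0.31. Psmb11 stood at 0.317, 0.334, 0.354, 0.341 and 0.197 CPM at day 0, 0.320, 0.278, 0.261, 0.195 and 0.127 in the day 1 libraries and 0.271, 0.328, 0.170, 0.228 and 0.165 at day 12. Its groups overlapped, and at this depth no change could be detected. Psmc3ip encodes a partner protein in meiotic recombination and is no subunit. Psmc3ip (chromosome 11, 101091823 to 101095436) measured 0.889, 0.926, 1.03, 1.14 and 0.840 CPM at day 0, 1.58, 1.11, 1.36, 0.767 and 0.999 in the day 1 libraries and 1.99, 1.61, 2.37, 2.14 and 2.56 at day 12. The day 0 and day 1 libraries overlapped, at 0.27 with an adjusted p of 0.172 by edgeR, and every day 12 library was above both, by 1.15 ± 0.17 (SE) against day 0. All 5 markers of proliferating cells were also called higher at day 12, and their part in this value was not tested. Of the exon bases of Psmc3ip, 21.2% overlap Mlx on the opposite strand.

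The immunoproteasome genes, which replace the catalytic beta subunits under interferon, were compared with their counterparts as the ratio of counts within each library, a value that needs no scaling. The log2 ratio of Psmb8 to Psmb5 was 0.037, -0.014, 0.0013, 0.049 and -0.088 at day 0, -0.64, -0.72, -0.85, -0.72 and -0.82 at day 1 and -2.26, -2.18, -1.99, -2.13 and -2.08 at day 12. The groups did not overlap, and the ratio differed from day 0 by -0.75 at day 1 and -2.12 at day 12 (exact permutation test, two-sided, p = 0.00794, the smallest that 5 against 5 libraries allow, and 0.00866 adjusted over 12 tests). The counts are not scaled for length, so a log2 ratio near 0 is no sign of equal levels. Per kilobase of the principal transcript, mean Psmb8 and Psmb5 stood at 35.5 and 64.3 CPM per kb at day 0, 33.6 and 102 at day 1 and 11.5 and 90.9 at day 12. The log2 ratio of Psmb9 to Psmb6 was -1.09 ± 0.073 at day 0 (SD, n = 5), and it was lower at -2.36 ± 0.098 after 1 day and -3.57 ± 0.089 after 12 days, with the same exact permutation p. The ratio of Psmb10 to Psmb7 fell at day 1 and was partly back at day 12, at -2.40 ± 0.063, -3.37 ± 0.13 and -2.83 ± 0.12. All 9 differences in these 3 pairs had that p.

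At day 1 the standard subunits were higher and Psmb9 was already called lower, and at day 12 both Psmb8 and Psmb9 were called lower. Psmb8 had log2 fold changes of -0.08 (adjusted p = 0.154 by edgeR) at day 1 and -1.62 at day 12, and Psmb9 of -0.67 and -2.18. Psmb10 was at -0.21 and 0.02. Of the exon bases of Psmb8, 14.7% overlap Gm20496 on the opposite strand. The log2 ratio of the caps Psme1 to Psme3 was -0.20 ± 0.065 at day 0, -0.43 ± 0.030 at day 1 and -0.48 ± 0.063 at day 12. It was lower than day 0 at both times by the exact permutation test (adjusted p = 0.00866). Within the larger library series the day 1 difference did not pass (adjusted p = 0.0623 by the same test). The difference between day 1 and day 12 did not pass (-0.06, p = 0.103 by the exact permutation test). Of 10 repeats that each left out 1 library, it passed in 1.

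**Figure D4:**
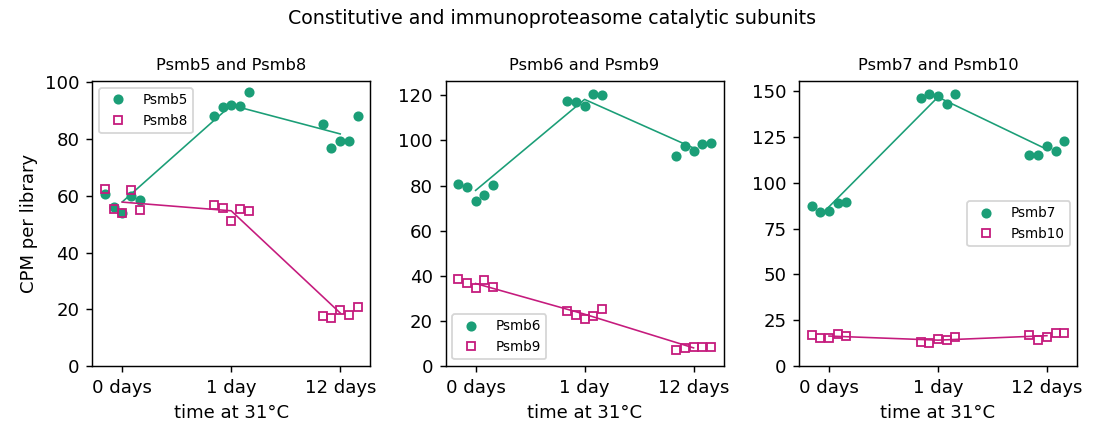
CPM in each of the 15 libraries, on the vertical axis from 0, of the 3 catalytic beta subunits (filled circles) and their immunoproteasome counterparts (open squares) by time at 31°C, with lines through the group means. The CPM of Psmb5 and Psmb8, which are not scaled for transcript length, overlap at day 0 and are apart in all libraries at day 1 and day 12.

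Levels of subunits were compared per kilobase of the principal transcript (CPM per kb), since longer transcripts gather more counts. At day 0 the core particle had a median of 85.1 CPM per kb, from 38.5 for Psma2 to 119 for Psma6. The regulatory particle had a median of 50.3 CPM per kb, from 29.7 for Psmd13 to 88.8 for Psmd2. The ratio of the highest to the lowest of the 31 subunits was 4.01 at day 0, 4.91 at day 1 and 4.72 at day 12, and 3.45 at day 12 if the shortest principal transcript was used for each gene. The lid was led by Psmd8 at 82.3 CPM per kb, the ATPases by Psmc1 at 58.4 and ended by Psmc6 at 39.2, and the beta ring ran from Psmb5 at 64.3 to Psmb6 at 97.6. Such levels depend on which transcript a gene used, which counts per gene do not show.

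Genes that act with the proteasome were counted in the same way. Of 10 associated proteins, 8 were higher and 1 was lower at day 1, and 7 were higher and 1 was lower at day 12, by the adjusted p. Of all genes, 35.3% were higher and 36.2% lower at day 1, and 39.2% and 37.4% at day 12. Adrm1, the ubiquitin receptor that docks on the base, was called at day 1 (0.80) and at 0.52 at day 12. Uchl5, the deubiquitinase that binds Adrm1, was at 0.38 and then called at 0.87. Pomp, the maturation factor of the core, rose by 0.15 and 0.24. Zfand5 was the gene lower at day 1 (-0.12) and Akirin2 the one lower at day 12 (-0.12).

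Of the 4 regulators of proteasome gene expression, 2 were higher and 2 lower at day 1. Nfe2l1 fell from 725 ± 19.6 CPM (SD, n = 5) at day 0 to 607 ± 6.54 after 1 day and to 470.4 ± 8.43 after 12 days, which are log2 fold changes of -0.26 and -0.62, and the latter was called. Nfe2l2, its relative, fell by 0.38 and 0.45 on the log2 scale. Ngly1, which removes sugar chains from Nfe2l1 and so frees its active form, rose by 0.36 and 0.48. Ddi2, the protease that cuts Nfe2l1, rose by 0.29 at day 1 and was at -0.02 at day 12. These are RNA levels, and the activity of Nfe2l1 is set after translation.

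Ubiquitin, its E1 enzymes and the shuttle factors, 11 genes in the table, moved in both directions at shares near those of all genes, which were 35.3% higher and 36.2% lower at day 1. At day 1, 5 were higher and 4 lower by the adjusted p, with a median of 0.01, and at day 12 again 5 and 4, with a median of 0.02. The polyubiquitin gene Ubb rose by 0.15 at day 1. Vcp, which extracts tagged proteins, rose by 0.29 and 0.19. Rad23b, a shuttle to the proteasome, rose by 0.16 and 0.26. Paaf1 and Rps27a were not analysed here.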

How the data were processed

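Total RNA of cultured adipocytes was sequenced in 15 libraries, placed in 3 groups of 5 by their labels. The authors aligned reads to mm10 with TopHat2 2.0.13 and Bowtie2 2.2.1 and deposited raw counts per gene made with HTSeq, which were the values used here. Strandedness and the treatment of reads with several matches were not given in the sources used here. The deposited log2 values and DESeq2 tables of fold changes, scores and p-values were not used.

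Counts were filtered with filterByExpr (minimum count 10), scaled by TMM (factors 0.946 to 1.09) and fitted with edgeR 4.0.16 (glmQLFit and glmQLFTest, R 4.3.3). A single fit held the 15 libraries, and p-values were adjusted over 14293 genes by the Benjamini-Hochberg method. Calls used the limits of the study, a fold change above 1.5 and an adjusted p below 0.05. The SE was taken as the log2 fold change over the square root of F. Ratios used counts plus 0.5. DESeq2 1.42.0 served as an alternative. Gene models came from GENCODE for GRCm38, the build of mm10. Values per library are given for each gene called in any comparison and for the gene of each role with the largest change at day 12, and other genes are named where they were highest or lowest per kb or went against their role. Psma1 was added to these after its values were seen, as were the genes named from the lists of other pathway genes. The members and lists were chosen with earlier results of these data known. A count of 0 in the shallowest library allows a level of up to 0.0464 CPM, that of 3 counts, which covers counting error only.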

Additional observations from a re-analysis of the deposited data

Results flagged for a closer look

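In 5 of the 138 groups of 5 libraries examined, 1 library lay apart from the others of its group, where chance gives about 1 in 20. Psmd6 was at 40.6 CPM in day 0 replicate 3, against 46.5 in the nearest library, and Psme2 at 82.3 CPM in the same library, against 89.8. Psmb4 was at 189 CPM in day 1 replicate 5, against 183, and Psme3 at 122.9 CPM in day 1 replicate 4, against 118.5. Psmb11 was at 0.197 CPM in day 0 replicate 5, against 0.317. For Psmc3ip, the effect of 12 days differed from that of 1 day, by a log2 fold change of 0.88 between the time points (adjusted p = 7.9e-05 by edgeR), higher in 5 of 5 libraries.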

How the results depend on the processing

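With total counts as the only scaling, 20 genes were called higher at day 12 against day 0 (7 with TMM), 0 were lower by the adjusted p (1 with TMM), and 17 were higher and 15 lower at day 12 against day 1 (5 and 30 with TMM), as all genes shifted. The direction of single genes then turned. At day 12 against day 0, Psmd11 was at 0.081 and Psme2 at 0.14. At day 12 against day 1, Psma3 was at 0.022, Psma7 0.12, Psmb11 0.16, Psmb5 0.0045, Psmc2 0.013, Psmc3 0.066, Psmc4 0.011, Psmc5 0.047, Psmd13 0.098, Psmd14 0.15, Psmd2 0.090, Psmd5 0.17, Psmd6 0.13, Psmd8 0.076, Psme3 0.00077, Psme4 0.14 and Psmg2 0.0071, and the median of the regulatory particle was 0.013. Other turns were of values near 0. Upper-quartile factors gave 0.0061 for Psmb11 and 0.012 for Psmd5, a minimum mean of 10 CPM 0.0065 for Psmd14 and 0.019 for Psmd5, and the series of the library number as a covariate 0.0011 for Psmd5. Psma4 was at -0.0072 with DESeq2, -0.0073 with its size factors in edgeR and -0.0036 within the larger series. Psmd11 was called lower at day 12 against day 1 with DESeq2 and with its size factors in edgeR, the 1 such gene under each, at -0.585. The minimum of 10 CPM left 0 genes called higher in that comparison, as it removed Psmc3ip, and lost the day 1 calls of Psmb2, Psmb6, Psmc3, Psmd14 and Psme4 and the day 12 call of Psma7. Psmd14 and Psme4 were also lost at day 1 with upper-quartile factors.

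Leaving out 1 library at a time gave 1 to 2 genes lower by the adjusted p at day 12 against day 0 and 0 to 1 called lower at day 12 against day 1 (Psmd11, without day 1 replicate 1 or 3 or day 12 replicate 2). Values that changed sign ranged from -0.28 to 0.40 for Psma8 at day 1, from -0.0018 to 0.068 for Psmg2 at day 12 and, at day 12 against day 1, from -0.0083 to 0.0094 for Psma4, from -0.19 to 0.12 for Psmb11 and from -0.024 to 0.0077 for Psmd5. The difference between day 12 and day 1 in the log2 ratio of Psme1 to Psme3 ranged from -0.079 to -0.043. Within the 11 libraries of the larger number series that ratio differed between day 1 and day 0 by -0.22, with an adjusted p of 0.0623 by the exact permutation test. The other 4 libraries hold too few of any group for a test.

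Whether the replicate numbers pair the libraries was not settled. Correlations of deviations between same-numbered libraries ranged from -0.026 to 0.044, 0 of 15 over 0.1, and 10 of 15 libraries correlated best with their own number. With the replicate number as a block, 20, 7 and 1 genes were called higher in the 3 comparisons, as without it, and Psma8 was at -0.00054 at day 1. The paired exact test of the ratios cannot go below an adjusted p of 0.0682. The mean of the paired differences equals the difference of the group means, so pairing changes only the p. The differences were -0.75, -2.12 and -1.38 for Psmb8 to Psmb5, -1.27, -2.49 and -1.21 for Psmb9 to Psmb6, -0.97, -0.43 and 0.54 for Psmb10 to Psmb7, and -0.22 and -0.28 for Psme1 to Psme3.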
